A study of Mus musculus with 20 samples.

Results

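The liver is the main site at which surplus amino acids are broken down, and 9 genes for enzymes of this breakdown were examined across both sexes of 2 inbred mouse strains. The genes were Hpd, Tat, Tdo2, Gnmt, Bhmt, Mat1a, Cbs, Cth and Gldc, chosen by gene symbol with earlier results of these data known. The shares and medians of all genes given below are therefore for scale and are no test of this list. Each symbol matched 1 of the 25444 loci in the tables, no member overlapped another listed locus, and all 9 were among the 13704 loci that passed the filter on low counts. Liver RNA was sequenced from 20 mice in 4 groups of 5: B6 females, B6 males, C3 females and C3 males. B6 denotes C57BL/6N and C3 denotes C3H/HeN, both wild-type inbred strains from 1 supplier, and every mouse was 20 weeks old. All mice were fed the same sequence of diets and received no treatment. They were housed singly, the males in one room and the females in another, and the effects of sex and of room cannot be told apart here. The replicates of a group were separate mice, and the numbers given to them do not link mice of different groups.

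Tyrosine aminotransferase (Tat) starts the breakdown of tyrosine, and 4-hydroxyphenylpyruvate dioxygenase (Hpd) catalyses the next step. Tryptophan 2,3-dioxygenase (Tdo2) opens the indole ring of tryptophan and feeds the kynurenine pathway, which leads towards NAD or towards complete oxidation. In the methionine cycle, Mat1a makes the methyl donor S-adenosylmethionine, Gnmt consumes it by methylating glycine, and Bhmt remakes methionine from homocysteine with betaine as methyl donor. Cbs and Cth turn homocysteine into cysteine by transsulfuration, and Gldc is the glycine decarboxylase of the mitochondrial glycine cleavage system. Tat and Tdo2 are textbook examples of liver genes induced by glucocorticoids.

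The members lie on 7 different chromosomes in the mm9 coordinates of the tables, each locus running from the first to the last base of the annotated gene. Cth and Tdo2 share chromosome 3 (chr3:157557212-157588027 and chr3:81762336-81779650), and Gnmt and Cbs share chromosome 17 (chr17:46862613-46866114 and chr17:31749568-31774150). Tat lies at chr8:112514336-112523704, Hpd at chr5:123621816-123632695, Mat1a at chr14:41918322-41937717, Bhmt at chr13:94386846-94407713 and Gldc at chr19:30172931-30249931.

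The promoters of Tdo2, Bhmt and Tat are shown because these genes had the largest sex differences among the members. RefSeq promoter sequences (build GRCm38.p6) were matched by symbol for 7 of the 9 members, without Cth and Mat1a. The 250 bases before the annotated start of each gene are given in the direction of transcription, with a CCAAT box (CCAAT, or ATTGG on the opposite strand) in capitals. Tdo2 is at chr3:81975729-81975978, minus strand, Bhmt at chr13:93637759-93638008, minus strand, and Tat at chr8:109990186-109990435, plus strand.
Tdo2: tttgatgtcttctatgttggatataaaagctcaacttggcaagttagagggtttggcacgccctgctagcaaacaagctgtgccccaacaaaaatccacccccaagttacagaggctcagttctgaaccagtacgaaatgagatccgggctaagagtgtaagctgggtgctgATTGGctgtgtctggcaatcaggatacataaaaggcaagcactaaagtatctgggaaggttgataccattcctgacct
Bhmt: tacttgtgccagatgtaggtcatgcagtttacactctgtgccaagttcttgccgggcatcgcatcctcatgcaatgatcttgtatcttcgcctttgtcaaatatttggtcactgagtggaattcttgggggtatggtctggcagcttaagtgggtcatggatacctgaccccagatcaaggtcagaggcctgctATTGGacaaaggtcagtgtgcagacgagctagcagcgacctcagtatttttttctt
Tat: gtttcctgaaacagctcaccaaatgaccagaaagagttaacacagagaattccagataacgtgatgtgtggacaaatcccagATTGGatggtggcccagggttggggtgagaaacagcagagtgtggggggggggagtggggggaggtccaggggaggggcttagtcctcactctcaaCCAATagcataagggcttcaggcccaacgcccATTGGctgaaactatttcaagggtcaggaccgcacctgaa

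The CCAAT box and the TATA box (TATAAA) were looked for after the sequences had been seen, in a window that also holds the 50 bases after the start. The CCAAT box was on either strand of 6 of the 7 member promoters, against 37.4% of all 32851 promoters in the same table. The TATA box was in 1 of the 7, Tdo2, against 13.6% of all promoters. The CCAAT match nearest the start on the upstream side began at base -78 in Tdo2, -56 in Bhmt and -40 in Tat, counted from the annotated start. A set of 5 motifs of liver transcription factors were searched on both strands of the same windows and matched in 0 of the 7. They were TTCNNNGAA (STAT5, in 8.3% of all promoters), AGAACA (one arm of the glucocorticoid receptor element, in 19.0%), TTGCNNAA (C/EBP, in 10.8%), CAAAGTCCA (HNF4A, in 0.475%) and GTTAAT (one arm of the HNF1 element, in 7.1%).

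Each library held between about 27370900 and 46835700 counts, and the members had between 6375 and 299092 counts in each liver, so counting error was small beside the spread between mice. Together they took between 1.2% and 2.03% of the counts of a liver. Expression is given as CPM (counts divided by the scaled library size and set to the same total) after TMM scaling, with the SD over 5 mice, and the text lists the mice of a group in the order of their replicate numbers. The summed level of 7 hepatocyte markers was 94271 to 198182 CPM, whereas the markers of exocrine pancreas, kidney, adipocytes and erythroid cells summed to at most 3.69 CPM in any liver. The libraries were sequenced in 3 pools with 1 or 2 mice of each group in each pool, and pool was a term of every main fit. A pair of livers stood high for the members. They were picked from the members' own values, so values without them show dependence on single livers and support no call. B6 female 3 was the highest of its group for 7 of the 9 members and C3 female 2 for 8 of the 9, and where leaving one of them out moved a value by over 1.5 times or across an adjusted p of 0.05 in a sex or strain comparison that its group enters, that value is also given. Because the RNA is from whole liver lobes, fewer cells of a type and less RNA per cell cannot be told apart.

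Levels of different genes were compared per length, as deposited TPM (transcripts at a common total, corrected for gene length). All 9 members were abundant. Bhmt averaged 4646 ± 1537 TPM (SD over the 20 livers) and ranked 26 among the 25444 loci, and Hpd averaged 4582 ± 919 TPM. These neighbours were not separated, since Bhmt exceeded Hpd in only 9 of the 20 livers. Gnmt followed with 2365 ± 626 TPM, Mat1a with 1875 ± 479.6 TPM, Tdo2 with 1353 ± 499 TPM and Tat with 1028 ± 363 TPM. Each of these exceeded the next gene in the order in 15 to 19 of the 20 livers. The transsulfuration enzymes were lower, at 512 ± 154 TPM for Cth and 389 ± 94 TPM for Cbs, and Gldc was the lowest at 155 ± 23.5 TPM, below Cbs in all 20 livers.

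**Figure D1:**
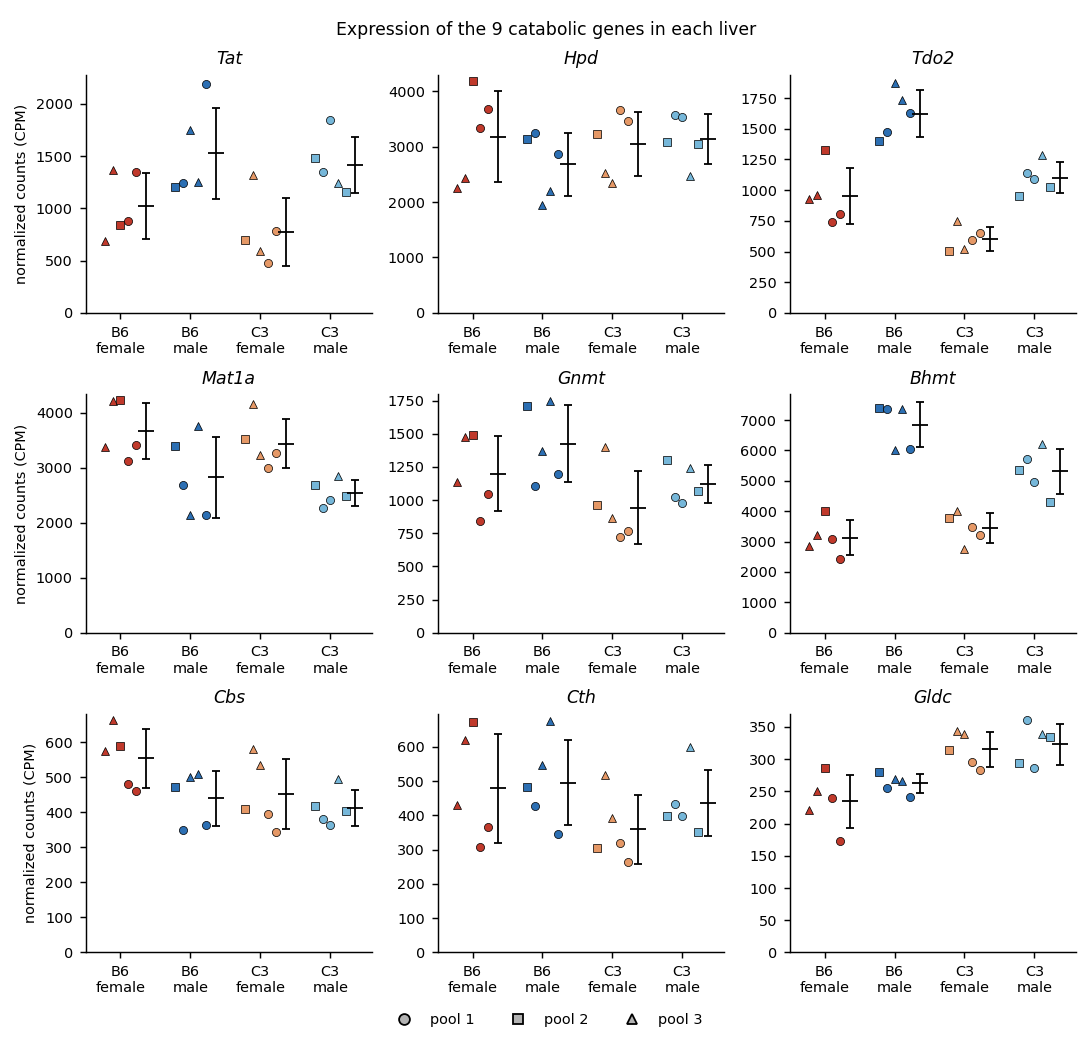
Normalized counts (CPM) of the 9 genes in each of the 20 livers, by strain and sex. Points are single livers, their shape gives the sequencing pool, and the bar beside each group is the mean ± SD of 5 mice. The male livers of both strains lie above the female livers for Tdo2 and Bhmt, and no female liver overlaps a male liver of its strain for these genes.

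Female and male livers were compared within each strain to ask which of these genes are sex-biased. Calls needed an adjusted p below 0.001 together with a log2 fold change of more than 0.5, up or down. The test was edgeR's quasi-likelihood test with Benjamini-Hochberg adjustment over all 13704 loci. Sex differences went in both directions along the pathways. Tdo2 in both strains and Bhmt in B6 were called male-biased, and Bhmt and Tat in C3 leaned towards males. Mat1a in both strains and Cbs and Hpd in B6 leaned towards females. Leaning here means an adjusted p under 0.05 without a call. In B6, 2 of the 9 members were called, Tdo2 and Bhmt, both lower in females, and 6.34% of all genes tested were called in this comparison. In C3, 1 of the 9 was called, Tdo2, against 6.90% of all genes. At an adjusted p under 0.05 and no minimum fold, 5 members differed in B6 and 4 in C3, where the shares of all genes were 34.6% and 40.0%. An unadjusted p under 0.05 was reached by 6 members in each strain, against 44.4% and 49.0% of all genes. The median log2 fold change of the members, female against male, was -0.17 in B6 and -0.27 in C3, and that of all genes tested was 0.0018 and 0.015. Of 67 further genes of amino acid pathways that were tested, 5 were called in B6, 3 higher and 2 lower in females, and 5 in C3, all lower in females, with medians of -0.08 and -0.05.

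Tdo2, the entry enzyme of tryptophan breakdown, was sex-biased in both strains. B6 females had 930.3, 961, 1330.5, 741 and 802 CPM and B6 males had 1403, 1471, 1873, 1732 and 1626 CPM. C3 females had 507, 748, 518, 593 and 652 CPM and C3 males had 955, 1139.7, 1092, 1289 and 1022 CPM. No female overlapped a male of the same strain, and B6 female 3, at 1330.5 CPM, came closest to the male range. The group means were 953 ± 229.6 CPM in B6 females, 1621 ± 191 CPM in B6 males, 604 ± 100.02 CPM in C3 females and 1099.6 ± 127 CPM in C3 males (SD, n = 5). Male livers thus had 1.70 times the female level in B6 (log2 fold change -0.76 ± 0.14, adjusted p = 0.000349) and 1.85 times in C3 (-0.89 ± 0.14, adjusted p = 9.6e-05). Here and below, the value after ± of a log2 fold change is its SE. Within pools 1, 2 and 3 the log2 difference in B6 was -1.0, -0.08 and -0.93, and pool 2 held a single pair of mice with B6 female 3 in it. In C3 it was -0.84, -0.96 and -1.05.

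The Tdo2 call in B6 rested on the threshold and on single livers. Without B6 female 3 the log2 fold change was -0.98 (adjusted p = 2.32e-07). Without any one of B6 females 1, 2, 4 or 5 or B6 males 3 or 5 it lay between -0.74 and -0.69, and the adjusted p rose to between 0.00125 and 0.00159, over the threshold. In C3 the call was kept without any one of the 20 livers. Without the pool term the adjusted p in B6 was 0.00113, and with a test against a fold of 0.5 on the log2 scale it was 0.171 in B6 and 0.0279 in C3.

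Of the 10 other tryptophan genes, those with an adjusted p under 0.05 were lower in females in both strains. In B6, 7 of the 10 had an adjusted p under 0.05 and all 7 were lower in females, and 1 passed both thresholds. In C3, 5 of the 10 had an adjusted p under 0.05, all lower in females, and 4 passed both thresholds. Of all genes tested, 34.6% in B6 and 40.0% in C3 had an adjusted p under 0.05 in either direction. Both thresholds were passed by 6.34% and 6.90% of all genes. The median log2 fold change of the list was -0.31 in both strains. Aadat, an aminotransferase that makes kynurenic acid, fell by 0.92 ± 0.14 on the log2 scale in B6 females (adjusted p = 9.54e-05) and by 0.85 ± 0.15 in C3 females (adjusted p = 0.00022). Its levels were 125 ± 31.4 CPM in B6 females and 248 ± 121 CPM in B6 males, with overlap between the sexes. Acmsd, the decarboxylase that diverts the pathway away from NAD, was at 11.4 ± 2.64 CPM in C3 females and 28.1 ± 6.79 CPM in C3 males, with no overlap (log2 fold change -1.40 ± 0.20, adjusted p = 3.23e-05). In B6 its value was -0.76 ± 0.19 (adjusted p = 0.00514), which missed the threshold on p.

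Kynureninase (Kynu) was at 142 ± 13.7 CPM in C3 females and 209.8 ± 22.9 CPM in C3 males (-0.59 ± 0.07, adjusted p = 3.29e-06). Kynurenine 3-monooxygenase (Kmo) was at 191 ± 12.1 CPM in C3 females and 279 ± 24.1 CPM in C3 males (-0.57 ± 0.06, adjusted p = 2.3e-06). In B6 both were lower in females without overlap, by 0.37 and 0.45 on the log2 scale, but under the threshold on the fold. Qprt, which makes the NAD precursor nicotinate mononucleotide, differed by -0.50 ± 0.06 (adjusted p = 6.27e-06) in B6 and -0.47 ± 0.06 (adjusted p = 1.58e-05) in C3, again just under that threshold. Afmid, Ccbl1 and Ccbl2 had log2 fold changes between -0.08 and 0.08 in both strains and did not pass. A test of the difference between the strains, the sex-by-strain interaction, called 0 of the 10 genes, and its smallest adjusted p was 0.249, for Acmsd.

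**Figure D2:**
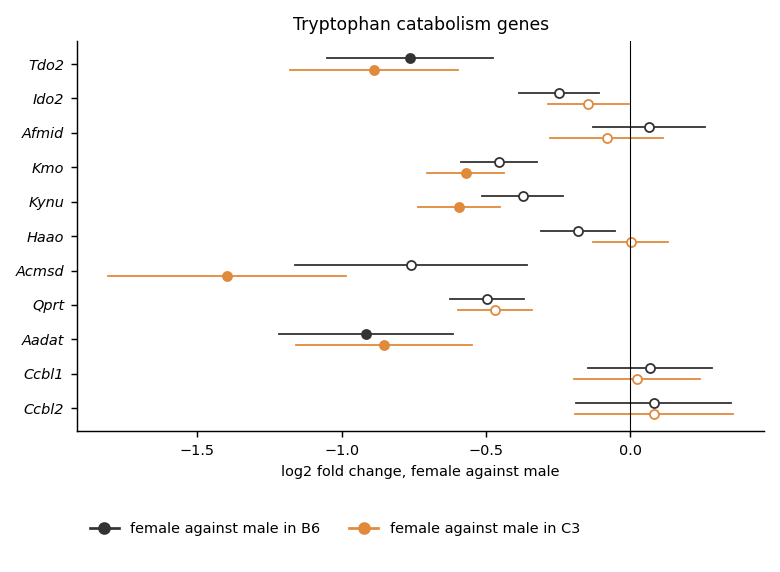
Log2 fold changes, female against male, of Tdo2 and the 10 other tryptophan catabolism genes in B6 (dark) and C3 (orange). Points are estimates of the model, bars are 95% confidence intervals, and filled points passed both thresholds. Tdo2 and Aadat are filled in both strains, and Kmo, Kynu and Acmsd in C3.

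Bhmt, which returns homocysteine to methionine, had the largest sex difference of the members in B6, while in C3 those of Tat and Tdo2 were larger. B6 females had 2859, 3202, 4015, 3097 and 2436 CPM and B6 males had 7411, 7378, 6016, 7380.5 and 6046 CPM. C3 females had 3777, 3997, 2770.2, 3465 and 3218 CPM and C3 males had 5371, 5703, 4948, 6220.1 and 4299.6 CPM. The female livers of both strains covered a like range, and all male livers lay above the females of their strain. The means were 3122 ± 579.7 CPM in B6 females and 6846 ± 744 CPM in B6 males, 2.20 times the female level after the fit (log2 fold change -1.14 ± 0.13, adjusted p = 2.4e-06). In C3 they were 3445 ± 479.9 CPM and 5308 ± 731 CPM, 1.53 times the female level (-0.61 ± 0.13, adjusted p = 0.0013), which just missed the threshold on p. Within pools 1, 2 and 3 the log2 difference was -1.28, -0.88 and -1.14 in B6 and -0.67, -0.35 and -0.90 in C3.

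The B6 call of Bhmt was kept without any one of the 20 livers. In C3, leaving out B6 female 3, B6 female 5, C3 female 2 or C3 male 5 took the adjusted p under the threshold, to between 0.000349 and 0.000951. Bhmt in C3 also passed in 4 of 12 other alternatives. These were DESeq2 (adjusted p = 1.99e-05), edgeR with no filter (0.000776) or with replicate number as a term (0.000616), and the looser cutoff of 0.05. Over all 12 the adjusted p ran from 1.99e-05 to 0.566. The sex difference was larger in B6 than in C3 by 0.52 ± 0.18 on the log2 scale (interaction, 95% interval 0.15 to 0.90, adjusted p = 0.135), so a difference between the strains was not called. Over 11 alternatives this interaction ran from 0.51 to 0.57 with a smallest adjusted p of 0.0393, and 0 of them called it. With each library left out in turn, its adjusted p in edgeR's test ran from 0.0578 to 0.238.

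Mat1a, which makes S-adenosylmethionine, leaned the opposite way. B6 females had 3383, 4212, 4226, 3129 and 3417 CPM and B6 males had 3396, 2676, 2144, 3748 and 2145 CPM. C3 females had 3529, 4166, 3229.5, 3002 and 3261 CPM and C3 males had 2684, 2262, 2412, 2845 and 2491 CPM. The sexes overlapped in B6 and not in C3. The log2 fold change, female against male, was 0.38 ± 0.12 (adjusted p = 0.0201) in B6 and 0.44 ± 0.12 (adjusted p = 0.00892) in C3, under the threshold on the fold in both. All 5 females exceeded the male median in each strain. Without B6 female 3 the B6 value was 0.34 (adjusted p = 0.0555).

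Gnmt, which uses S-adenosylmethionine to methylate glycine, did not pass. Its means were 1198 ± 282 CPM in B6 females, 1425 ± 292 CPM in B6 males, 943 ± 273 CPM in C3 females and 1122 ± 142 CPM in C3 males. For the log2 fold change, female against male, the 95% interval was -0.51 to 0.00 in B6 and -0.53 to -0.01 in C3, and the sexes overlapped in both strains. Without C3 female 2 the C3 value went from -0.27 ± 0.12 (adjusted p = 0.0865) to -0.40 (adjusted p = 0.00546).

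Of the 11 other methionine cycle and methyl transfer genes tested, 0 were called between the sexes in either strain. At an adjusted p under 0.05, 4 were lower in B6 females, and in C3 females 4 were higher and 2 lower. At an unadjusted p under 0.05 the counts were 4 and 8.

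Neither transsulfuration gene passed both thresholds between the sexes. Cbs, which condenses homocysteine with serine, was at 574, 664, 590.4, 481 and 462 CPM in B6 females and 473, 349, 502, 511 and 364 CPM in B6 males. C3 females had 410.5, 582, 534, 395 and 343 CPM and C3 males had 417, 381, 365, 496 and 404 CPM. The groups overlapped in both strains as listed. In B6 the log2 fold change of 0.34 ± 0.07 (adjusted p = 0.00061) passed the threshold on p and not that on the fold, and within pools it was 0.40, 0.32 and 0.29. In C3 it was 0.07 ± 0.07 (adjusted p = 0.406). Cth, which splits cystathionine to cysteine, had means of 479 ± 160.2 CPM in B6 females, 496 ± 125 CPM in B6 males, 359.9 ± 100.4 CPM in C3 females and 436 ± 95.7 CPM in C3 males. Its log2 fold change, female against male, was -0.04 ± 0.16 (adjusted p = 0.853) in B6 and -0.36 ± 0.16 (adjusted p = 0.0806) in C3. The direction in B6 turned when B6 female 1, B6 female 4 or B6 male 4 was left out, so no direction is given for it. Without B6 female 3 the B6 value was -0.28 (adjusted p = 0.0958), and without C3 female 2 the C3 value was -0.43 (adjusted p = 0.0453). For Cbs, which stayed under the fold threshold, the C3 value without C3 female 2 was 0.03 (adjusted p = 0.702).

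Downstream of cysteine, 10 of the 11 genes of the cysteine and sulfide list were tested. In B6, Got1, a cytosolic aspartate aminotransferase, was higher in females (252 ± 84.3 CPM against 133 ± 34.6 CPM, log2 fold change 0.91 ± 0.18, adjusted p = 0.000914), with overlap. Mpst, a sulfurtransferase chosen outside the naming rule after its values were seen, fell by 0.52 ± 0.07 (adjusted p = 3.13e-05). In C3 only Csad, the decarboxylase of the taurine pathway, was called. C3 females had 9.91 to 17.1 CPM and C3 males 51.5 to 114 CPM, a log2 fold change of -2.30 ± 0.24 (adjusted p = 9.79e-07). In B6 the Csad ranges were 32.9 to 86.5 CPM in females and 88 to 194 CPM in males (-1.10 ± 0.23, adjusted p = 0.00111), and the interaction was -1.20 ± 0.32 (adjusted p = 0.0507).

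Tat, the first enzyme of tyrosine breakdown, varied more within groups than any other member. B6 females had 686, 1364, 837, 879.8 and 1345 CPM and B6 males had 1204, 1238, 1749, 1250.2 and 2192 CPM. C3 females had 699.5, 1314, 592, 474 and 786 CPM and C3 males had 1483, 1351, 1848, 1241 and 1157 CPM. In C3, 4 of the 5 females lay below every male, and C3 female 2 lay within the male range. The log2 fold change, female against male, was -0.58 ± 0.25 (adjusted p = 0.079) in B6 and -0.93 ± 0.26 (adjusted p = 0.0085) in C3, and neither passed. In C3 the male level was 1.9 times the female level, and within pools the log2 difference was -1.37, -0.90 and -0.49. Without C3 female 2 the log2 fold change was -1.17 (adjusted p = 0.000667), which passed both thresholds.

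Hpd, the next enzyme, did not pass in either strain. Its means were 3179.9 ± 819 CPM in B6 females, 2680.4 ± 574 CPM in B6 males, 3046 ± 582 CPM in C3 females and 3138 ± 446 CPM in C3 males. The log2 fold change was 0.24 ± 0.08 (adjusted p = 0.0218) in B6 and 0.05 ± 0.08 (adjusted p = 0.621) in C3, with a 95% interval from -0.11 to 0.21 in C3. The C3 means, which are not adjusted for pool, ran the other way from this fitted value. Without the pool term the C3 value was -0.04, so no direction is given for it. Without B6 female 3 the B6 value was 0.14 (adjusted p = 0.112), and without C3 female 2 the C3 value was 0.03 (adjusted p = 0.795). Of the 7 other phenylalanine and tyrosine genes, 1 was called in B6 and 0 in C3, where 3 had an unadjusted p under 0.05. Gch1, which starts the synthesis of tetrahydrobiopterin, was at 139 ± 31.7 CPM in B6 females and 91 ± 24.4 CPM in B6 males (0.61 ± 0.09, adjusted p = 7.18e-05).

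Gldc did not pass between the sexes. B6 females had 221, 251, 287, 239 and 174 CPM and B6 males had 281, 255, 269, 266 and 241 CPM. C3 females had 314, 344, 339, 296 and 283 CPM and C3 males had 294, 361, 287, 339 and 335 CPM. The sexes overlapped in both strains, with 95% intervals of the log2 fold change of -0.36 to 0.03 (B6) and -0.23 to 0.16 (C3). The log2 fold change in B6 was -0.17 ± 0.09 (adjusted p = 0.168), and without B6 female 3 it was -0.26 (adjusted p = 0.0322). Of the 14 other choline, betaine, glycine and serine genes tested, 1 was called between the sexes in B6 and 0 in C3, where 5 had an unadjusted p under 0.05. The B6 gene was Agxt, the peroxisomal alanine-glyoxylate aminotransferase, at 414 ± 70.9 CPM in females and 252 ± 41.5 CPM in males (0.72 ± 0.08, adjusted p = 1.4e-06). The calls of Agxt, Got1, Mpst, Gch1 and Aadat in B6 were all lost in a fit without the pool term. Among the 15 genes for histidine, proline, lysine and branched-chain amino acids, 0 were called between the sexes, and 7 in B6 and 5 in C3 had an unadjusted p under 0.05.

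**Figure D3:**
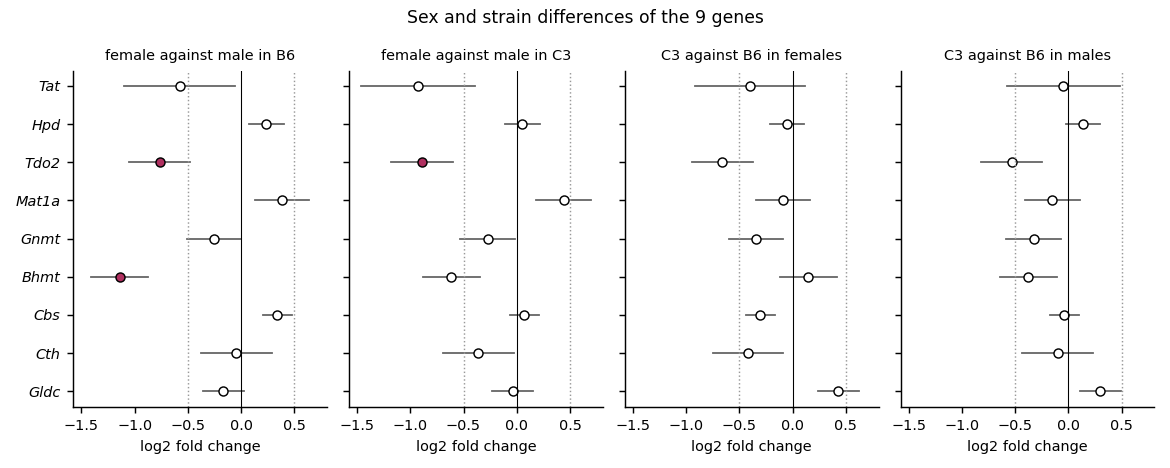
Log2 fold changes of the 9 genes in the 4 comparisons of sex and strain. Points are estimates of the model, bars are 95% confidence intervals, filled points passed both thresholds, and dotted lines mark a log2 fold change of 0.5 in either direction. The filled points are Tdo2 and Bhmt in B6 and Tdo2 in C3, all on the side of lower expression in females, and no strain difference is filled.

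C3 and B6 livers were compared within each sex to ask which members are strain-biased, in the same 20 livers as the sex comparisons. With the edgeR test, 0 of the 9 members were called in females, where 9.40% of all genes were, and 0 in males, where 9.64% were. An unadjusted p under 0.05 was reached by 5 members in females and 4 in males, against 41.9% and 44.3% of all genes, and an adjusted p under 0.05 by 4 in each, against 32.9% and 34.5% of all genes. DESeq2 called 1 member in females, Tdo2, and 0 in males. The median log2 fold change of the members, C3 against B6, was -0.30 in females and -0.10 in males, and that of all genes was 0.019 and 0.015.

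Tdo2 came closest. B6 females had 1.58 times the level of C3 females (log2 fold change -0.66 ± 0.14, adjusted p = 0.00105), and B6 males had 1.45 times that of C3 males (-0.53 ± 0.14, adjusted p = 0.00569). All C3 males, at 955 to 1289 CPM, lay below all B6 males, at 1403 to 1873 CPM. In females the highest C3 liver reached 748 CPM and the lowest B6 liver 741 CPM. Within pools 1, 2 and 3 the difference was -0.31, -1.39 and -0.60 in females and -0.47, -0.51 and -0.48 in males. Without B6 female 3 it was -0.45 in females (adjusted p = 0.000739), under the threshold on the fold. Leaving out B6 female 4 or C3 female 2 led to a call (adjusted p = 0.000581 and 0.000867).

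Gldc was the member that leaned towards C3. C3 females, at 283 to 344 CPM, lay above 4 of the 5 B6 females, which were at 174 to 287 CPM (log2 fold change 0.43 ± 0.09, adjusted p = 0.00128). C3 males, at 287 to 361 CPM, lay above all B6 males, at 241 to 281 CPM (0.30 ± 0.09, adjusted p = 0.0167). Both differences were under the threshold on the fold, and without B6 female 3 the female difference passed both (0.51, adjusted p = 0.000246). Gnmt was lower in C3 by 0.35 in females and 0.33 in males on the log2 scale (adjusted p = 0.0357 and 0.0481), with overlap in both sexes. Cbs differed by -0.30 ± 0.07 (adjusted p = 0.00134) in females and by -0.04 ± 0.07 (adjusted p = 0.709) in males. Bhmt differed by -0.38 ± 0.13 (adjusted p = 0.0289) in males, and its interval in females was -0.12 to 0.41. Tat, Hpd, Mat1a and Cth did not reach an adjusted p under 0.05 in either sex. Several of the values in females moved with single livers. Without C3 female 2, Tat went from -0.40 ± 0.25 (adjusted p = 0.237) to -0.68 (adjusted p = 0.0265), and Cth from -0.42 ± 0.16 (adjusted p = 0.0503) to -0.50 (adjusted p = 0.0303). Mat1a went from -0.09 ± 0.12 (adjusted p = 0.597) to -0.15 (adjusted p = 0.403), and Bhmt from 0.15 ± 0.13 (adjusted p = 0.406) to 0.08 (adjusted p = 0.679). Without B6 female 3, Cth was at -0.20 (adjusted p = 0.236), Mat1a at -0.06 (adjusted p = 0.772), Bhmt at 0.26 (adjusted p = 0.14) and Gnmt at -0.29 (adjusted p = 0.105), and Hpd turned from -0.05 to 0.04 (adjusted p = 0.717). The interaction called 0 of the 9 members, against 0.401% of all genes tested, and 0 had an adjusted p under 0.05, against 2.96%. At an unadjusted p under 0.05 there were 2, Bhmt and Cbs, against 16.1% of all genes (interaction of Cbs -0.27 ± 0.09, adjusted p = 0.138), and DESeq2 also called 0.

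Several other genes of the same pathways were strain-biased. For scale, 9.40% of all genes tested were called in females and 9.64% in males. Of the 67 pathway genes tested, 8 were called in females, 2 higher and 6 lower in C3, and 11 in males, 5 higher and 6 lower. Nnmt, which methylates nicotinamide with S-adenosylmethionine, had the largest difference. It was at 27.7 to 92.7 CPM in B6 females and 1.05 to 4.12 CPM in C3 females (-4.49 ± 0.25, adjusted p = 8.46e-11), and at 38.2 to 104 CPM in B6 males and 0.749 to 1.97 CPM in C3 males (-5.42 ± 0.27, adjusted p = 2.09e-11). Ahcy, which hydrolyses S-adenosylhomocysteine after methyl transfer, was lower in C3 in females (543 ± 133 CPM against 879 ± 211 CPM, -0.69 ± 0.11, adjusted p = 5.92e-05) and in males (-0.75 ± 0.11, adjusted p = 2.75e-05). Gcsh, a partner of Gldc in the glycine cleavage system, was at 39.4 ± 14.6 CPM in C3 females and 86.5 ± 15.4 CPM in B6 females (-1.19 ± 0.12, adjusted p = 4.64e-07), and differed in males by -1.27 ± 0.13 (adjusted p = 2.3e-07).

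Csad in B6 females was at 4.42 times the level of C3 females (-2.14 ± 0.24, adjusted p = 1.19e-06). Agxt was higher in C3 males, at 536 ± 70.5 CPM against 252 ± 41.5 CPM in B6 males (1.11 ± 0.08, adjusted p = 2.33e-09). Bckdhb, a subunit of the branched-chain ketoacid dehydrogenase, was higher in C3 in males (0.75 ± 0.07, adjusted p = 4.01e-08) and in females (0.63 ± 0.06, adjusted p = 3.96e-07), without overlap in either sex. Kmo, outside the naming rule here, was lower in C3 in both sexes, by 0.65 in females and 0.53 in males on the log2 scale. Also called and outside that rule were Ftcd (0.53) in females, and Mtrr (0.74), Sqrdl (0.58), Amt (0.51), Hal (-0.68) and Gcdh (-0.69) in males, with the log2 fold change of C3 against B6 in brackets. Amt, like Gldc and Gcsh, belongs to the glycine cleavage system. Over all 67 genes the median log2 fold change was -0.03 in each sex.

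The members also differed in how much they varied between mice of 1 group. The within-group SD of log2 CPM was 0.42 for Tat, 0.39 for Cth, 0.31 for Gnmt and Hpd, 0.25 for Cbs, 0.24 for Mat1a, 0.23 for Tdo2, 0.21 for Bhmt and 0.17 for Gldc. The median over the 1315 genes with a mean above 100 CPM was 0.21. Part of this spread followed the sequencing pool. Hpd deviated from its group mean by 0.21, 0.15 and -0.35 on average in pools 1, 2 and 3, and Cth by -0.28, -0.0060 and 0.32. Cbs deviated by -0.23, 0.02 and 0.24. With pool removed, the SD of Hpd fell to 0.12 and that of Cbs to 0.10, while Tat stayed at 0.44.

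After group and pool means were removed, the deviations of Hpd and Cth went together across the 20 livers. Pearson's r was 0.94 and Spearman's rho 0.90, and r was 0.91 without the 2 livers farthest from the median of Hpd. Each was the gene most like the other among all genes tested, and Aldh1a1, an aldehyde dehydrogenase that makes retinoic acid, came second for both (r = 0.91 and 0.92). B6 female 3 had the highest deviation of both. Going together was not particular to this pair. With Cth, r was 0.72 for Bhmt, 0.71 for Gnmt, 0.68 for Tdo2, 0.66 for Cbs, 0.60 for Mat1a and 0.50 for Gldc. With Hpd, r was 0.68 for Bhmt, 0.66 for Mat1a, 0.63 for Tdo2, 0.62 for Gnmt, 0.58 for Cbs and 0.43 for Gldc. Tat went with neither Hpd nor Cth (r = -0.05 with Hpd and 0.12 with Cth), though its r with Gnmt was 0.60. These values describe points that share a library and its scaling. The pairs named as most alike were picked as the highest of many, so no p is given. The share of all genes tested with r above 0.5 was 11.6% for Tat, 6.55% for Gldc and 2.66% to 4.36% for the other 7.

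The genes whose deviations were most like those of the other members, with r over the 20 livers, were Zbtb18 (0.95) and Plekha8 (0.94) for Tat, Ugt2b36 (0.87) and Cyp1a2 (0.86) for Tdo2, Aldh1a7 (0.92) and Clybl (0.86) for Bhmt and Gstt3 (0.87) and Slc22a29 (0.83) for Mat1a. For Gnmt they were Cps1 (0.86) and Gsta2 (0.86), the first being the entry enzyme of the urea cycle. For Cbs they were Sdhc (0.84) and Uqcrc1 (0.80) and for Gldc Uqcrc2 (0.88) and Timm44 (0.87). Aldh1a1, Aldh1a7, Ugt2b36, Gstt3 and Gsta2 belong to families with close paralogs, and reads that fit several of them were not counted, so their values are less certain.

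**Figure D4:**
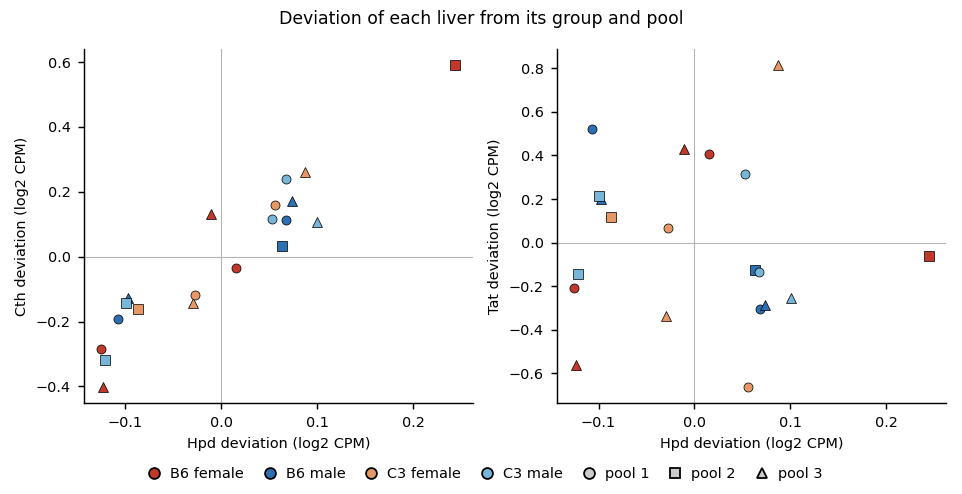
Deviation of each of the 20 livers from its group and pool means in log2 CPM, Hpd against Cth on the left and Hpd against Tat on the right. Colour gives the group and shape the pool. Hpd and Cth deviate together (r = 0.94), with B6 female 3 at the upper right, and Hpd and Tat do not (r = -0.05).

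Genes of hormone response and of the daily rhythm were also compared between the sexes. At an adjusted p under 0.05 in edgeR's test, 2 of the 9 hormone-response genes differed in B6, both higher in females. In C3, 3 differed, 2 higher and 1 lower in females. Of the 8 clock genes, 5 differed in B6, 4 higher and 1 lower in females, and 2 in C3, both lower. The shares of all genes tested were 34.6% in B6 and 40.0% in C3. Fkbp5, a glucocorticoid-induced gene, was higher in females, at 43.2 ± 18.6 CPM against 10.8 ± 1.43 CPM in B6 (1.99 ± 0.26, adjusted p = 1.14e-05) and 41.4 ± 7.61 CPM against 16.1 ± 5.06 CPM in C3 (1.34 ± 0.25, adjusted p = 0.000596). It was the only called gene among the 9 hormone-response genes in each sex comparison, and 0 were called between the strains, where 2 in females and 2 in males had an unadjusted p under 0.05. Tsc22d3, another glucocorticoid-induced gene, and the clock gene Per2 had log2 fold changes of -0.69 and -1.15 in B6 and -1.35 and -1.41 in C3, and did not pass both thresholds. Of the 8 clock genes, Nr1d2 was called in B6, higher in females (0.82 ± 0.16, adjusted p = 0.000604), and 0 were called in C3, where 3 had an unadjusted p under 0.05. Between the strains 0 clock genes were called, with 1 in females and 5 in males at an unadjusted p under 0.05. In each sex 7 of the 8 had a positive log2 fold change, C3 against B6, with medians of 0.18 in females and 0.93 in males. An adjusted p under 0.05 was reached by 0 in females and by 4 in males, all higher in C3. Of all genes tested, 32.9% and 34.5% reached it. Within groups, the deviations of Tat went with those of Per2 (r = 0.79), Tsc22d3 (0.77) and Hnf4a (0.76) and against those of Stat5b (-0.75) and the glucocorticoid receptor gene Nr3c1 (-0.72) over the 20 livers. These were the 5 largest in size of 27 regulator genes, whose r with Tat ran from -0.75 to 0.79, and r was -0.08 with Fkbp5, -0.08 with Arntl and -0.55 with Igfbp1. Per the study's methods, collection was kept to a fixed window of a few hours starting in the morning, and the hour of each liver within it is not given. Of 10 transcription factor genes, Cux2 was higher in females of both strains (5.56 ± 0.52, adjusted p = 2.33e-07 in B6 and 6.30 ± 0.52, adjusted p = 4.52e-08 in C3), and Bcl6 was lower in B6 females (-2.44 ± 0.48, adjusted p = 0.000712). Their part in the sex differences of the members was not tested.

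Markers of other liver cells also differed. Of all genes tested, 6.34% in B6 and 6.90% in C3 were called between the sexes. Between the strains, 9.40% were called in females and 9.64% in males. Of the 10 Kupffer cell markers, 9 in B6 and 6 in C3 had an adjusted p under 0.05 between the sexes. The shares of all genes at this cutoff were 34.6% and 40.0%. All 10 markers had positive log2 fold changes in females of both strains, though 1 was called in each (Vsig4). Their summed level was 576 to 719 CPM in B6 females, 365 to 547 in B6 males, 374 to 551 in C3 females and 264 to 397 in C3 males, and 7 and 4 of them were called lower in C3 in females and males. Vsig4, Adgre1, C1qb and Csf1r were called in both sexes and Clec4f, C1qa and C1qc in females. Stellate cell markers summed to 305 to 379.5, 247 to 276, 228 to 259.7 and 194 to 220.3 CPM in the same order, with 0 of the 6 called in any comparison and 4 at an unadjusted p under 0.05 in each comparison of sex and strain. Sinusoidal endothelial markers summed to 381 to 481, 311 to 371, 354 to 440.2 and 320.1 to 384 CPM, and Lyve1 was called lower in C3 females. Of the 8 pericentral hepatocyte markers, 6 were called lower in C3 females and 5 in C3 males, and Cyp1a2 was also lower in C3 females than in C3 males. Glul, Oat, Slc1a2 and Rhbg were called in both sexes, Cyp2e1 and Cyp1a2 in females and Lgr5 in males. The 8 markers summed to 10380.3 to 14289 CPM in B6 females, 9609 to 13898 in B6 males, 6314 to 8588 in C3 females and 8023 to 11742 in C3 males. The 8 periportal markers, at 9993 to 15258, 11493 to 14003, 9098 to 14690.0 and 10782 to 14438 CPM, held 1 called gene in each sex comparison (Cyp2f2, lower in females), 0 in the strain comparison of females and 1 in that of males (Hal, lower in C3 and also among the pathway genes). Of the 7 hepatocyte markers, Ahsg was higher in B6 females than in B6 males and in C3 males than in B6 males, and Apoa1 was higher in C3 in both sexes. Cholangiocyte and lymphocyte markers summed to at most 43.6 and 31.3 CPM, with Sox9 lower in females of both strains and higher in C3 females than in B6 females, and Ptprc higher in C3 females than in C3 males and lower in C3 males than in B6 males. At no more than 3.69 CPM, the adipocyte gene Cfd was called lower in B6 females than in B6 males and in C3 males than in B6 males, and the pancreas gene Cela2a lower in C3 females than in B6 females. The part of these differences in the results for the members was not tested.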

How the data were processed

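Left liver lobe RNA of 20 mice was sequenced by the authors as stranded, ribosomal RNA-depleted total RNA with paired reads. Per the sources used here, they trimmed adapters with Cutadapt 1.9.1, aligned to mm9 with STAR 2.5.1b and counted RefSeq genes by strand with featureCounts (Subread 1.5.0-p1), leaving out reads that map to several places or overlap several genes. The deposited counts are raw counts per gene. The deposited TPM values were computed by the authors and set counts per gene length and library. In both tables the headers of the symbol and identifier columns are exchanged, and the symbol column was used by its content.

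The 9 genes and all gene lists were chosen with earlier results of these data known. Counts were fitted with edgeR 4.0.16 (R 4.3.3, TMM scaling, filterByExpr, quasi-likelihood F test) with group and pool as terms over all 20 libraries, and p-values were adjusted by Benjamini-Hochberg over the 13704 loci tested. Calls needed an adjusted p under 0.001 and a log2 fold change over 0.5 in either direction, the thresholds of the study. CPM values are TMM-scaled, with a prior count of 2 where logged, and intervals are 95% intervals of the fit. Of the 70 pathway genes listed, 67 were tested (not Amd1, Gadl1 and Phgdh), and those named were the called ones with the largest absolute log2 fold changes, up to 4 per comparison. Kmo, Qprt, Afmid, Ccbl1, Ccbl2, Mpst, Ftcd, Mtrr, Sqrdl, Amt, Hal, Gcdh, Cdo1, Tsc22d3, Per2 and the transcription factor genes correlated with Tat were named after their values were seen. Among regulator and marker lists, called genes were named. Alternatives were other scalings, filters, covariates and thresholds, DESeq2 1.42.0, limma 3.58.1 on log2 TPM, and leaving out each library. Promoter sequences are RefSeq's for GRCm38.p6 and were not compared with the mm9 coordinates. Protein sequences were not used here, and 1 called pathway gene is counted but not reported by name here.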

Additional observations from a re-analysis of the deposited data

Results flagged for a closer look

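No liver stood apart from the other 4 of its group by Dixon's criterion in any of the 36 tests of a member in a group, where chance gives about 1 in 20. Among the 67 pathway genes, 2 had a sex difference that differed between the strains at an adjusted p under 0.05 in edgeR's interaction test, against 2.96% of all genes tested, and neither passed the threshold of 0.001. The count is near that share and is no result about the list. For Agxt, the peroxisomal aminotransferase that removes glyoxylate, the interaction was -0.65 ± 0.11 (adjusted p = 0.00208). It was at 414 ± 70.9 CPM in B6 females, 252 ± 41.5 CPM in B6 males, 576 ± 124 CPM in C3 females and 536 ± 70.5 CPM in C3 males, so the log2 fold change, female against male, was 0.72 in B6 and 0.07 in C3. For Cdo1, the dioxygenase that oxidises cysteine, the interaction was -0.44 ± 0.09 (adjusted p = 0.0144), with 1821 ± 109 CPM in B6 females, 1375 ± 118 CPM in B6 males, 1385 ± 107 CPM in C3 females and 1407 ± 51.2 CPM in C3 males. The cause of either difference was not tested.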

How the results depend on the processing

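Log2 fold changes of the members under alternatives other than leaving out a library were judged by the cutoff of their own setting. Of these values, 506 kept direction and side of the cutoff, 23 came to pass it, 4 no longer passed and 7 turned direction. The 23 include values counted under the looser rule of an adjusted p under 0.05 with no minimum fold. With upper-quartile scaling, limma on log2(TPM + 1) and limma on log2(TPM + 0.1), Cth in B6, female against male, turned to 0.0235, 0.0376 and 0.0377, and Gldc in C3 to 0.0253, 0.0768 and 0.0772. Hpd in C3 turned to -0.0429 without the pool term. Of the members called, C3 against B6 in females, the count was 1 with upper-quartile scaling, no filter, a filter of 1 CPM in 5 libraries, DESeq2 and either limma fit, in place of 0. In C3, female against male, it was 2 with no filter, DESeq2 and the replicate block, and 0 with a test against a log2 fold of 0.5 (glmTreat). In B6 it was 1 without the pool term, with only the groups compared and with glmTreat. At an adjusted p under 0.05 with no minimum fold, 5, 4, 4 and 4 members and 32, 26, 30, 26 and 2 pathway genes passed in the comparisons of sex in B6, sex in C3, strain in females, strain in males and, for pathway genes, the interaction. Pathway genes called between the sexes in B6 numbered 10 with DESeq2, 0 without the pool term, 3 with only the groups compared and 0 with glmTreat. With glmTreat they numbered 2 between the sexes in C3, 3 between the strains in females and 3 in males. Without the pool term 5 were called between the strains in females, and DESeq2 called 1 in the interaction. The cause of these changes was not tested.

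Leaving out each library in turn gave 1 to 2 members called between the sexes in B6, 1 to 3 in C3, 0 to 1 between the strains in females and 0 to 0 in males and in the interaction. For pathway genes the ranges were 3 to 8 (3 without B6 female 2 and 8 without B6 female 3), 4 to 7, 7 to 10, 10 to 12 and 0 to 0. Log2 fold changes that turned direction ranged over -0.276 to 0.0596 for Cth in B6 and -0.0846 to 0.0444 for Gldc in C3, both female against male. They ranged over -0.0838 to 0.0375 for Hpd between the strains in females, and -0.0715 to 0.0123 for Cbs and -0.160 to 0.130 for Tat in males. In the interaction they were -0.0377 to 0.148 for Mat1a, -0.142 to 0.0393 for Gnmt and -0.200 to 0.0460 for Tdo2. Replicate numbers did not pair the mice: with pool removed, 2, 1, 2 and 1 of 5 same-numbered pairs had deviations correlated over 0.1 in the comparisons of sex in B6 and C3 and of strain in females and males. Of 10 livers, 3, 1, 4 and 1 correlated best with their own number. With the replicate block, the members called were 2, 2, 0, 0 and 0 and the pathway genes 6, 7, 8, 11 and 0. The libraries were not thinned, so a limit set by depth was not tested.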
